A study of Mus musculus with 6 samples.

Results

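The 9 genes followed here, which are abundant in blood monocytes and in monocytes entering tissue, were measured in brain myeloid cells of lupus-prone mice: Plac8, Fn1, Ace, Chil3, Vcan, Hp, Cd44, F10 and Ifitm6. They were taken by symbol, and each matched 1 Ensembl row of the count matrix, so the group held 9 of the 55401 gene rows. Monocytes leave the bone marrow, circulate, and enter tissue when endothelial cells and chemokines recruit them, whereas microglia are the resident macrophages of the brain parenchyma and are not replaced from blood in the healthy brain. Classical monocytes carry Ly6C and the chemokine receptor CCR2 and give rise to inflammatory macrophages. Nonclassical monocytes patrol the vessel wall. The 9 genes encode cell-surface, secreted and cytoplasmic proteins that take part in adhesion, matrix assembly, plasma proteolysis, haemoglobin handling and innate defence.

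RNA was sequenced from brain microglia of untreated mice aged 6 weeks, selected by a density gradient and CD11b magnetic beads. There were 3 libraries of MRL/lpr mice, which carry the lpr mutation of the death receptor gene Fas and develop a lupus-like disease, and 3 libraries of MRL/mpj mice, the background strain without it. CD11b is also carried by monocytes, neutrophils and border macrophages, and no gate that separates them from microglia is described. Perfusion, the gradient and the bead selection are meant to leave behind erythrocytes and cells without CD11b, such as most lymphocytes and choroid plexus epithelium. The labels do not say whether a library came from 1 animal or several, so the p-values measure the spread between these libraries, which may be technical.

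Each library held between 45481609 and 49846634 counts. Genes with exactly 4 counts were more frequent (1138 to 1288 per library) than genes with 3 counts (320 to 415) or 5 counts (211 to 261), so low counts may carry fewer read pairs than their number. The labelled cell type was supported by its markers in every library, and the summed level of 14 microglia markers was 36192 to 39696 CPM (counts scaled to a common library size with TMM factors) in MRL/lpr and 43629 to 45637 CPM in MRL/mpj. Fas itself did not pass the test between strains (log2 fold change -0.06 ± 0.21 (SE, n = 3 per strain), adjusted p = 0.887, edgeR), although its count does not check the lpr mutation directly. MRL/lpr replicate 3 stood apart by the gene CT010467.1, which held 6.38% of its counts and 0.169% to 0.457% elsewhere. The mitochondrial share of counts was 3.06% to 3.49% in MRL/lpr and 5.84% to 6.38% in MRL/mpj.

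Sex-linked transcripts also differed between the strains. The methods name female mice and the labels give no sex. Y-linked genes were counted in every library, with Ddx3y at 4974, 5720 and 3690 counts in MRL/lpr replicates 1 to 3 and 5505, 6416 and 7559 in MRL/mpj replicates 1 to 3. Xist, the RNA made from the inactive X chromosome of females, had 10847, 11319 and 8886 counts in MRL/lpr and 29, 38 and 27 in MRL/mpj. The MRL/lpr libraries thus held transcripts typical of both sexes, and the MRL/mpj libraries nearly only those of males. A difference between the strains and a difference in this makeup cannot be told apart in any result given here.

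All 9 genes passed the filter on low counts and were tested among the 19554 genes that passed it. At an adjusted p under 0.05 (quasi-likelihood test of edgeR, adjusted by Benjamini-Hochberg over all tested genes), 8 of the 9 genes passed, against 20.2% of all tested genes. Of these, 6 rose in MRL/lpr, where 11.1% of all tested genes did, and 2 fell, where 9.06% did. Plac8, F10, Vcan, Hp, Ifitm6 and Cd44 rose, Chil3 and Ace fell, and Fn1 did not pass. With a log2 fold change of at least 1 required as well, 2 were called higher (Plac8 and F10; 4.67% of all tested genes) and 1 was called lower (Chil3; 3.66% of all tested genes). The median log2 fold change of the 9 genes was 0.75, against -0.01 over all tested genes. In 8 of the 9 genes the libraries of the strains did not overlap, which was also the case for 39.0% of all tested genes. The MRL/lpr libraries were above in 6 genes (19.6% of all tested genes) and below in 2 (19.4%). The group therefore did not move as a block, and its genes are described singly. The 9 genes were chosen with earlier results of these data known, so the shares over all tested genes give a background and do not test the group.

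**Figure D1:**
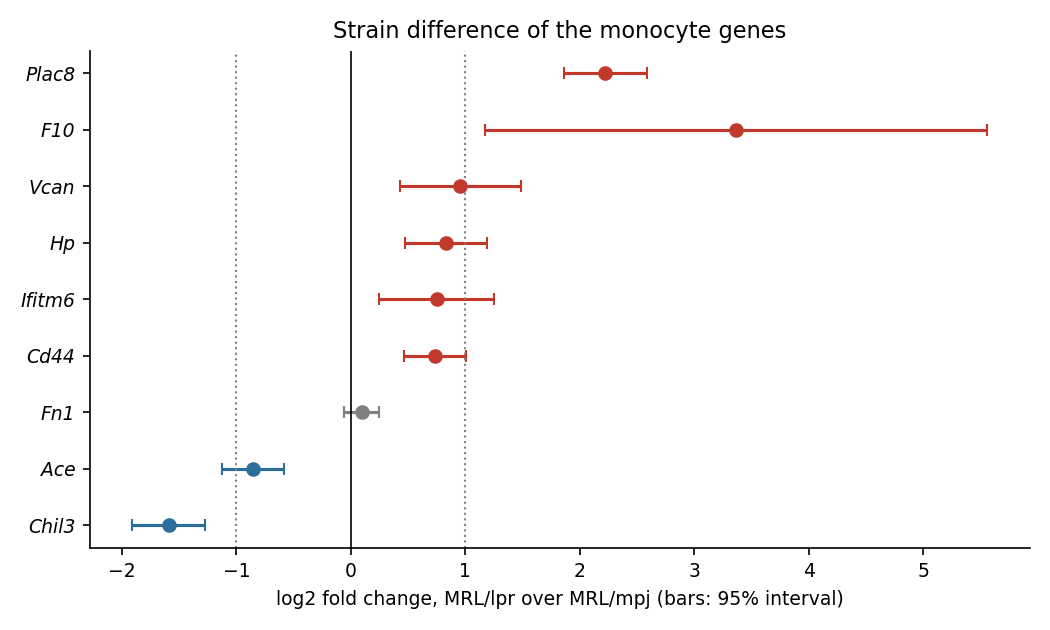
Log2 fold change of each of the 9 genes in MRL/lpr against MRL/mpj (horizontal axis, log2 scale; n = 3 libraries per strain), with points for the edgeR estimate, bars for its 95% confidence interval and dotted lines at -1 and 1. F10 (3.36) and Plac8 (2.22) lie farthest to the right, Chil3 (-1.59) and Ace (-0.85) lie left of 0, and the interval of Fn1 (-0.06 to 0.25) spans 0.

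Levels between genes were compared per transcript length, in FPKM as deposited. In MRL/lpr, Fn1 stood first with a mean of 38.8 FPKM, followed by Hp at 13.2 FPKM. Plac8, Chil3, Ace and Ifitm6 came next at 9.35, 8.44, 7.61 and 6.33 FPKM. Plac8, Chil3 and Ace each overlapped the gene after them between libraries, whereas Plac8 (8.6 to 10.5 FPKM) lay wholly above Ifitm6 (5.77 to 7.34 FPKM). Cd44 at 2.06 FPKM, F10 at 0.987 FPKM and Vcan at 0.25 FPKM closed the order. In MRL/mpj, Fn1 again stood first at 39.6 FPKM, but Chil3 at 27.7 FPKM and Ace at 14.94 to 15.12 FPKM came before Hp at 8.08 FPKM. Ifitm6 (4.08 FPKM), Plac8 (2.17 FPKM) and Cd44 (1.34 FPKM) followed there, and Vcan (0.14 FPKM) and F10 (0.103 FPKM) came last with overlapping libraries.

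**Figure D2:**
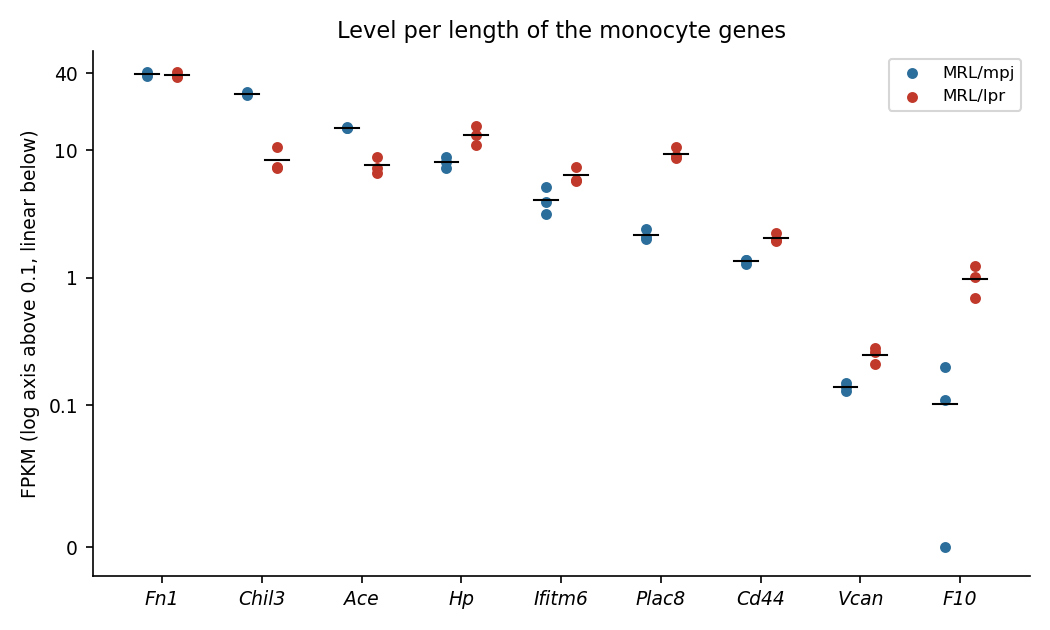
Deposited FPKM (log axis above 0.1, linear below) of each of the 9 genes in each of the 6 libraries (blue for MRL/mpj, red for MRL/lpr), with a line at each strain mean. Fn1 is the most abundant of the 9 in every library (strain means 38.8 and 39.6 FPKM), and Vcan and F10 are the least abundant.

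Plac8 encodes a small cysteine-rich protein of myeloid and lymphoid cells and is among the genes most used to tell monocytes from resident macrophages. Plac8 (ENSMUSG00000029322; GRCm38 chr5:100553725-100572245, minus strand) had 741, 770 and 848 counts in MRL/lpr replicates 1 to 3 and 179, 208 and 187 counts in MRL/mpj replicates 1 to 3. Every MRL/lpr library was above every MRL/mpj library. Scaled by library, its level was 17.5 ± 2.46 CPM in MRL/lpr and 3.75 ± 0.363 CPM in MRL/mpj (SD, n = 3 each), a 4.66-fold difference. The log2 fold change was 2.22 ± 0.16 (SE), with a 95% confidence interval of 1.86 to 2.58 and an adjusted p of 1.47e-05 (edgeR). In these bulk libraries, more cells that express the gene and more RNA per cell cannot be told apart, for Plac8 and for every gene that follows.

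Chil3 encodes the secreted chitinase-like protein Ym1, which is made by classical monocytes, by neutrophil precursors and by alternatively activated macrophages. Chil3 (ENSMUSG00000040809; chr3:106147554-106167564, minus strand) had 936, 644 and 612 counts in MRL/lpr replicates 1 to 3 and 2498, 2493 and 2452 counts in MRL/mpj. The MRL/lpr libraries were all below the MRL/mpj libraries, and replicate 1 was the highest of the 3. The mean level was 16.1 ± 3.35 CPM in MRL/lpr and 48.5 ± 1.37 CPM in MRL/mpj (SD, n = 3 each), which is 3.02-fold higher in MRL/mpj. Chil3 fell by 1.59 ± 0.14 (SE) on the log2 scale (adjusted p = 5.09e-05, edgeR), opposite to Plac8. Chil3 has close relatives: 78 of the 1581 possible 100-base words of its transcripts (4.93%) also occur in Chil4 or Gm6522, but these genes held at most 1 and 0 counts in any library. The related gene Chil1 rose (0.65, adjusted p = 0.0264, edgeR).

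The starts of both genes, of F10 and of Ifitm6 are shown because Plac8, F10 and Chil3 were the 3 called genes and because Chil3 and Ifitm6 hold the same searched letters while moving in opposite directions. Each stretch is the 180 bases before the RefSeq start on GRCm38.p6, read 5′ to 3′ on the strand of the gene, with capitals for the matched letters: chr5:100572206-100572385 (minus) and chr5:100563097-100563276 (minus) for the annotated starts 1 and 2 of Plac8, chr3:106167565-106167744 (minus) for Chil3, chr8:13037128-13037307 (plus) for F10 and chr7:141016893-141017072 (minus) for Ifitm6.
Plac8 start 1: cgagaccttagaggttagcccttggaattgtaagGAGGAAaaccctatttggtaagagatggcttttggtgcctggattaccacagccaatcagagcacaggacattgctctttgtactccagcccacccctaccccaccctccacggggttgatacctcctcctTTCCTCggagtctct
Plac8 start 2: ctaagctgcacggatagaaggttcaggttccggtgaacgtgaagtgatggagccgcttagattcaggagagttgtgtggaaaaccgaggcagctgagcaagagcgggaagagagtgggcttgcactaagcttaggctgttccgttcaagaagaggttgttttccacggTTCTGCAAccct
Chil3: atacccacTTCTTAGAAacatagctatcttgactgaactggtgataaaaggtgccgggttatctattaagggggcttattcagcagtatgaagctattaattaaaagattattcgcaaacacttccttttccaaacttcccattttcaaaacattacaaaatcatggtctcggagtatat
F10: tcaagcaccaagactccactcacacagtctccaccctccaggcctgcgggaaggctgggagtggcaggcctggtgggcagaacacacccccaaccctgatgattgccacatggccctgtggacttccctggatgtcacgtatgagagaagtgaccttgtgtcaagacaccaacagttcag
Ifitm6: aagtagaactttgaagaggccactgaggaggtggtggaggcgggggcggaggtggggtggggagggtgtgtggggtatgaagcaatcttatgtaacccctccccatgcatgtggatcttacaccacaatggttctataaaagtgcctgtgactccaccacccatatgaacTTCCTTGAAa

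The 250 bases before each start were searched on both strands for the letters TTCNNNGAA (GAS, bound by STAT factors). The search also covered GAAA followed after any 2 bases by GAAA (ISRE, bound by interferon-activated factors) and GAGGAAGT (PU.1). Also searched were TTGCNNAA (C/EBP, a family of myeloid factors) and GAGGAA, which is contained in the PU.1 letters. Among 32851 promoters these letters occurred, in the order given, in 7.02%, 2.98%, 2.44%, 9.56% and 23.3%. The GAS letters were found 172 bases before the start of Chil3, which fell, and 10 bases before that of Ifitm6, which rose. The GAGGAA letters were found at the first Plac8 start (146 and 15 bases before it) and at the first Ace start (217 and 89 bases). They were also found at Cd44 (243 and 220 bases). C/EBP letters were found 12 bases before the second Plac8 start. None of the searched letters occurred before F10, Vcan or the second Ace start, and the ISRE and PU.1 letters occurred in none of the 9 windows of the 7 genes that had an entry. Fn1 and Hp were not analysed here for this. These matches describe the letters only, and the shorter ETS core GGAA was not searched.

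F10 encodes coagulation factor X, a vitamin K-dependent protease zymogen that converts prothrombin to thrombin once it is activated by tissue factor and factor VIIa. F10 (ENSMUSG00000031444; chr8:13037308-13056676, plus strand) had 106, 152 and 173 counts in MRL/lpr replicates 1 to 3, against 17, 30 and 0 counts in MRL/mpj. All MRL/lpr libraries were above all MRL/mpj libraries, but the counts were low. Its level was 3.21 ± 0.943 CPM in MRL/lpr and 0.310 ± 0.301 CPM in MRL/mpj (SD, n = 3 each), a ratio of 10.3. The log2 fold change of 3.36 ± 0.93 (SE) had a wide interval, from 1.17 to 5.56, and an adjusted p of 0.0437 (edgeR). The call was lost without MRL/lpr replicate 1, 2 or 3 (adjusted p = 0.0876, 0.104 and 0.122) or MRL/mpj replicate 1 (0.131), and it held without MRL/mpj replicate 2 (0.0426) or 3 (0.00535, all edgeR).

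Around factor X, the initiator F3 (tissue factor) rose, with 724, 725 and 537 counts in MRL/lpr and 241, 220 and 369 in MRL/mpj. Its log2 fold change was 1.43 ± 0.20 (SE; adjusted p = 0.000972, edgeR). F5, the cofactor of activated factor X, fell by 1.24 ± 0.12 (SE) on the log2 scale, from 45.8 ± 3.35 CPM in MRL/mpj to 19.4 ± 2.61 CPM in MRL/lpr (SD; adjusted p = 7.67e-05, edgeR). Tfpi, the inhibitor of factor X and tissue factor, did not pass the test (log2 fold change -0.37, adjusted p = 0.372, edgeR). F13a1, the transglutaminase subunit that monocytes make, did not pass either (0.21, adjusted p = 0.373, edgeR), nor did the thrombin receptor F2r (0.05, adjusted p = 0.81, edgeR). F7 was below the filter, with 0 counts throughout MRL/lpr and 0, 16 and 8 in MRL/mpj. The steps of this pathway hence moved in different directions.

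Hp encodes haptoglobin, the plasma protein that binds free haemoglobin and that maturing granulocytes and monocytes also make. Hp (ENSMUSG00000031722; chr8:109575128-109579172, minus strand) had 1140, 945 and 1262 counts in MRL/lpr replicates 1 to 3 and 642, 765 and 731 counts in MRL/mpj. The strains did not overlap, and replicate 3 was the highest MRL/lpr library. The mean level was 24.8 ± 5.09 CPM against 13.9 ± 1.41 CPM (SD, n = 3 each), and Hp rose by 0.83 ± 0.16 (SE) on the log2 scale (adjusted p = 0.00509, edgeR). Among its partners, Hmox1, which degrades haem, rose from 423 ± 16.7 to 847 ± 111 CPM (SD, n = 3 each; adjusted p = 7.65e-05, edgeR). The iron exporter gene Slc40a1 fell by 0.31 (adjusted p = 0.0151, edgeR). Cd163, the receptor for haptoglobin-haemoglobin complexes, had a log2 fold change of 0.62 that did not pass (adjusted p = 0.054, edgeR). The summed level of erythrocyte markers was 703, 685 and 1134 CPM in MRL/lpr replicates 1 to 3 and 610 to 674 CPM in MRL/mpj, so that replicate 3, also the highest in Hp, stood apart. Of 5 markers, 1 (Alas2) rose (1.02, adjusted p = 0.0445, edgeR). The haemoglobin genes Hba-a1 and Hba-a2 did not pass (0.63 and 0.42, adjusted p = 0.201 and 0.553, edgeR), and the list median was 0.42. Leaving out any single MRL/mpj library took the count that rose to 0, and leaving out MRL/lpr replicate 3 took it to 2. Their part in the Hp difference was not tested.

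Ace encodes angiotensin-converting enzyme, a membrane peptidase of endothelium, choroid plexus and nonclassical monocytes. Ace (ENSMUSG00000020681; chr11:105967945-105989964, plus strand) had 1900, 2085 and 2383 counts in MRL/lpr replicates 1 to 3 and 4369, 4292 and 4433 counts in MRL/mpj. Each MRL/lpr library was below each MRL/mpj library, and the MRL/mpj libraries lay close together. The level was 47.2 ± 8.69 CPM in MRL/lpr and 85.4 ± 0.440 CPM in MRL/mpj (SD, n = 3 each), 1.81-fold higher in MRL/mpj. Ace fell by 0.85 ± 0.12 (SE) on the log2 scale (adjusted p = 0.000973, edgeR), just short of a call, and without MRL/lpr replicate 3 it fell by 1.01 and was called. The substrate gene Agt was low and did not pass (log2 fold change -0.40, adjusted p = 0.662, edgeR), and the receptor genes Agtr1a and Agtr2 were below the filter.

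Markers of the choroid plexus, a tissue rich in Ace, moved the same way. Of 10 such markers, 9 fell and all 9 were called lower, with a median log2 fold change of -1.58 over the list. Their summed level was 584 to 586 CPM in MRL/lpr and 1946 to 2102 CPM in MRL/mpj. Ttr, the defining marker, which encodes transthyretin, fell by 1.64 (adjusted p = 3.21e-07, edgeR), from 942 ± 40.3 to 302 ± 6.68 CPM (SD, n = 3 each). The folate receptor gene Folr1 fell by 1.15 (adjusted p = 0.00512, edgeR), and Prlr fell by 2.24. None of the defining markers was at 0. Their part in the Ace difference was not tested. Endothelial and pericyte markers, by contrast, were mixed: 2 of 10 rose and 3 fell, with a median of -0.02, and the endothelial genes Cldn5 and Pecam1 had log2 fold changes of -0.04 and -0.00 (adjusted p = 0.853 and 0.999, edgeR).

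**Figure D3:**
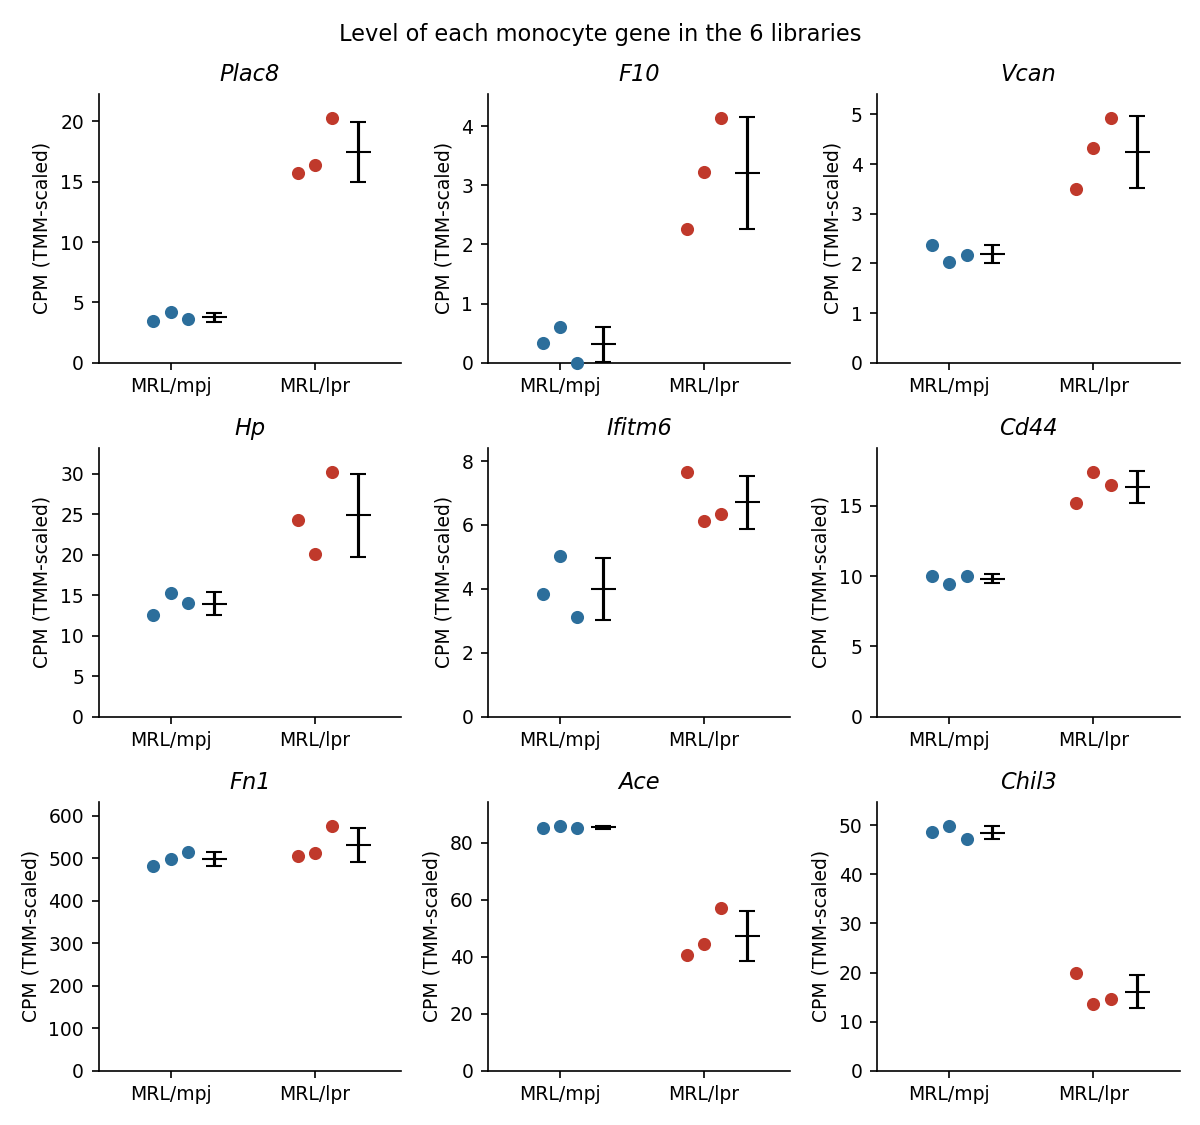
Level of each of the 9 genes in each library (CPM, with a separate vertical axis for each gene), with a point for each of the 3 MRL/mpj (blue) and 3 MRL/lpr (red) libraries and, beside them, the strain mean with a bar of 1 SD to each side. The points of the strains are apart in every panel except that of Fn1, with MRL/lpr above in Plac8, F10, Vcan, Hp, Ifitm6 and Cd44 and below in Ace and Chil3.

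Fn1 encodes fibronectin, an extracellular matrix glycoprotein to which cells attach through integrins. Fn1 (ENSMUSG00000026193; chr1:71585520-71653200, minus strand) had 23694, 24147 and 24058 counts in MRL/lpr replicates 1 to 3 and 24724, 24860 and 26733 counts in MRL/mpj. After scaling, the libraries overlapped, at 504, 513 and 576 CPM in MRL/lpr and 481, 497 and 514 CPM in MRL/mpj. Fn1 did not pass the test, with a log2 fold change of 0.09 ± 0.07 (SE) and an adjusted p of 0.401 (edgeR). The 95% interval of -0.06 to 0.25 bounds the difference, and its sign depended on the scaling, since it was -0.03 with library size alone (adjusted p = 0.771, edgeR) and -0.03 on the deposited FPKM (adjusted p = 0.790, limma). Of the fibronectin receptor genes, Itga5 rose (0.46, adjusted p = 0.0029, edgeR) and Itga4 rose (1.21, adjusted p = 0.000152, edgeR). Their shared partner Itgb1 and the alternative subunit gene Itgav did not pass (-0.25 and -0.66, adjusted p = 0.0586 and 0.0511, edgeR). Of the 12452 possible 100-base words of Fn1 transcripts, 150 also occur in the antisense gene Apol7d, which had at most 4 counts in a library.

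Vcan encodes versican, a large proteoglycan that binds hyaluronan and is made by monocytes and by oligodendrocyte precursors. Vcan (ENSMUSG00000021614; chr13:89655312-89742509, minus strand) had 164, 204 and 206 counts in MRL/lpr replicates 1 to 3 and 122, 101 and 113 counts in MRL/mpj. The strains did not overlap. The opposite-strand genes Gm16318 and Gm4117 that overlap Vcan had at most 1 and 16 counts in a library. The mean level was 4.25 ± 0.724 CPM against 2.19 ± 0.177 CPM (SD, n = 3 each), and Vcan rose by 0.96 ± 0.23 (SE) on the log2 scale (adjusted p = 0.0183, edgeR). It no longer passed without MRL/lpr replicate 2 (adjusted p = 0.0543), MRL/lpr replicate 3 (0.0523), MRL/mpj replicate 2 (0.0694) or MRL/mpj replicate 3 (0.0597, all edgeR). Without MRL/lpr replicate 1 (log2 fold change 1.08, adjusted p = 0.0221, edgeR) or MRL/mpj replicate 1 (1.02, adjusted p = 0.0458, edgeR) it was called higher. Of the 7 tested oligodendrocyte precursor markers, 3 fell and none rose, and their part in the Vcan difference was not tested. The list had summed levels of 15.4 to 17.6 CPM in MRL/lpr and 30.1 to 34.5 CPM in MRL/mpj. Among these markers, Pdgfra fell by 1.27 (adjusted p = 0.0164, edgeR) and Cspg4 fell by 1.05 (adjusted p = 0.00352, edgeR). Adamts1, a protease that cleaves versican, rose by 1.33 ± 0.09 (SE; adjusted p = 1.03e-05, edgeR), whereas the related Adamts4 did not pass (0.09, adjusted p = 0.863, edgeR).

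Cd44 encodes the main cell-surface receptor for hyaluronan, which activated leukocytes use to adhere and migrate. Cd44 (ENSMUSG00000005087; chr2:102811141-102901665, minus strand) had 713, 819 and 687 counts in MRL/lpr replicates 1 to 3 and 513, 471 and 521 counts in MRL/mpj. The MRL/lpr libraries were all above the MRL/mpj libraries. At 16.3 ± 1.12 CPM against 9.81 ± 0.333 CPM (SD, n = 3 each), Cd44 was 1.67-fold higher in MRL/lpr, a log2 fold change of 0.74 ± 0.12 (SE; adjusted p = 0.00216, edgeR). Of the genes that make or bind its ligands, Has1 had no counts, Has2 was below the filter, and Has3 and Hapln1 did not pass (-0.48 and 0.38, adjusted p = 0.652 and 0.763, edgeR). Spp1, which encodes the CD44 ligand osteopontin, had a log2 fold change of -0.52 that did not pass (adjusted p = 0.0632, edgeR).

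Ifitm6 encodes a member of the interferon-induced transmembrane family, found mainly in myeloid cells of the blood and marrow. Ifitm6 (ENSMUSG00000059108; chr7:141015699-141017924, minus strand) had 360, 288 and 265 counts in MRL/lpr replicates 1 to 3 and 197, 251 and 162 counts in MRL/mpj. On the CPM scale, the lowest MRL/lpr library (6.12 CPM) was above the highest MRL/mpj library (5.02 CPM). Its log2 fold change was 0.75 ± 0.22 (SE), with means of 6.71 ± 0.832 and 3.99 ± 0.963 CPM (SD, n = 3 each) and an adjusted p of 0.0422 (edgeR). This was the weakest of the rises by adjusted p after F10, and it was lost when any library but MRL/mpj replicate 2 was left out, with adjusted p of 0.135, 0.0706 and 0.0570 without MRL/lpr replicate 1, 2 or 3 and 0.125 and 0.136 without MRL/mpj replicate 1 or 3 (edgeR). Of its relatives, Ifitm3 rose (0.80, adjusted p = 9.99e-05, edgeR) and Ifitm10 rose (0.58, adjusted p = 0.00922, edgeR). Ifitm1 and Ifitm2 did not pass (0.36 and 0.13, adjusted p = 0.305 and 0.444, edgeR).

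The order of the libraries within a strain was not shared by all 9 genes. MRL/lpr replicate 3 was the highest of its strain in 6 genes (Plac8, Fn1, Ace, Vcan, Hp and F10), replicate 1 in Chil3 and Ifitm6, and replicate 2 in Cd44. In MRL/mpj, replicate 2 was the highest in 6 genes, replicate 3 in 2 and replicate 1 in 1. The shares of all tested genes with these orders were not computed, so the orders are not shown to be particular to the 9 genes. Outside them, MRL/lpr replicate 3 was the highest of its strain in Tmem119 (2948 CPM) and the lowest in P2ry12 (601 CPM).

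Other markers of monocytes were set beside the 9 genes. Of 20 classical monocyte markers, 10 rose, 1 fell and 9 did not pass, with 5 called higher and a median log2 fold change of 0.46. Their summed level was 943 to 969 CPM in MRL/lpr and 685 to 689 CPM in MRL/mpj. Without Thbs1, the most abundant of them, it was 624 to 668 CPM in MRL/lpr and 499 to 504 CPM in MRL/mpj. The defining markers were not among the genes that rose: Ly6c2 had a log2 fold change of 0.39 (adjusted p = 0.146, edgeR) and Ccr2 of -0.26 (adjusted p = 0.349, edgeR). Ccr2 had 389, 275 and 300 counts in MRL/lpr and 426, 436 and 441 in MRL/mpj. Fcnb, which encodes the lectin ficolin B of marrow myeloid cells, had 129, 112 and 148 counts in MRL/lpr and 8, 0 and 12 in MRL/mpj, the largest rise of the list (4.45, adjusted p = 0.00266, edgeR). Ms4a4c rose as well (3.05, adjusted p = 0.000259, edgeR). The chemokine gene Ccl9 fell by 0.51 (adjusted p = 0.00161, edgeR).

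Of 17 nonclassical monocyte markers, 9 rose, 4 fell and 4 did not pass, with a median of 0.94. Their summed level was 2229 to 2518 CPM in MRL/lpr and 1847 to 1887 CPM in MRL/mpj, with Nr4a1 the most abundant. Without Nr4a1 the order was the opposite, at 966 to 986 CPM in MRL/lpr and 1152 to 1173 CPM in MRL/mpj. The fall of Cd9 alone, from 589 ± 14.5 to 255 ± 17.4 CPM (SD, n = 3 each), was larger than this gap. The defining marker Treml4 did not pass (0.94, adjusted p = 0.193, edgeR), while Nr4a1, the transcription factor these cells depend on and an early response gene of many cells, rose from 703 ± 26.0 to 1407 ± 140 CPM (SD, n = 3 each; adjusted p = 2.44e-05, edgeR). Bcl2a1a had the largest rise (3.08, adjusted p = 1.01e-06, edgeR), which is uncertain because it has near-identical copies. Cd9, a tetraspanin gene that is abundant in microglia, had the largest fall (-1.21, adjusted p = 3.44e-06, edgeR). The count of genes that fell was 2 without MRL/lpr replicate 1 or 2 or MRL/mpj replicate 1 or 2, and 5 without MRL/lpr replicate 3.

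Cells other than monocytes share several of the 9 genes. Neutrophil markers, which accompany Chil3, Hp and Ifitm6 in marrow granulocytes, had summed levels of 1589 to 1779 CPM in MRL/lpr and 1547 to 1588 CPM in MRL/mpj, or 832 to 972 and 674 to 746 CPM without Csf3r, the most abundant of them. Of 14, 4 rose and none fell, with a median of 0.30 and none called, and the count that rose was 2 without MRL/mpj replicate 3. S100a8 rose by 0.36 (adjusted p = 0.0328, edgeR), and S100a9 had a log2 fold change of 0.21 (adjusted p = 0.106, edgeR). The part of neutrophils in the differences of Chil3, Hp and Ifitm6 was not tested.

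Border macrophage markers, of cells that line the meninges and vessels, had summed levels of 465 to 501 CPM in MRL/lpr and 770 to 800 CPM in MRL/mpj. The scavenger receptor gene Stab1 carried that gap (427 ± 22.8 against 734 ± 14.8 CPM, SD, n = 3 each), and the other markers summed to 48.4 to 52.8 CPM in MRL/lpr and 49.3 to 54.9 CPM in MRL/mpj. Of 12 markers, 1 rose (Siglec1, 3.14) and 3 fell, namely Stab1 (-0.78), Mrc1 (-0.39, adjusted p = 0.0443, edgeR) and Cbr2 (-1.68), with a median of 0.06. Of 14 microglia markers, 1 rose (Slc2a5, 0.32) and 5 fell, with a median of -0.21, and 8 fell without MRL/lpr replicate 3. Tmem119 had a log2 fold change of -0.05 (adjusted p = 0.835, edgeR), P2ry12 one of -0.67 (adjusted p = 0.0566, edgeR), and Fcrls, which fell by 1.76, was the only one of the 14 called lower. Astrocyte markers had 1 of 8 that fell and none that rose, with a median of -0.16 and Gfap at 0.32 (adjusted p = 0.106, edgeR) and Aqp4 at -0.02 (adjusted p = 0.962, edgeR).

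Lymphocyte markers were low and higher in MRL/lpr, with summed levels of 16.6 to 20.4 CPM against 4.56 to 5.44 CPM. Of the 11 tested of 12, 5 rose and none fell, and all 5 were called. Cd3e, a chain of the T cell receptor complex, had 103, 92 and 120 counts in MRL/lpr and 2, 0 and 9 in MRL/mpj (log2 fold change 4.99, adjusted p = 0.00177, edgeR), and Cd3d did not pass (1.22, adjusted p = 0.0501, edgeR). Plac8 and Cd44 are also used by lymphocytes, and the part of these cells in their differences was not tested.

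**Figure D4:**
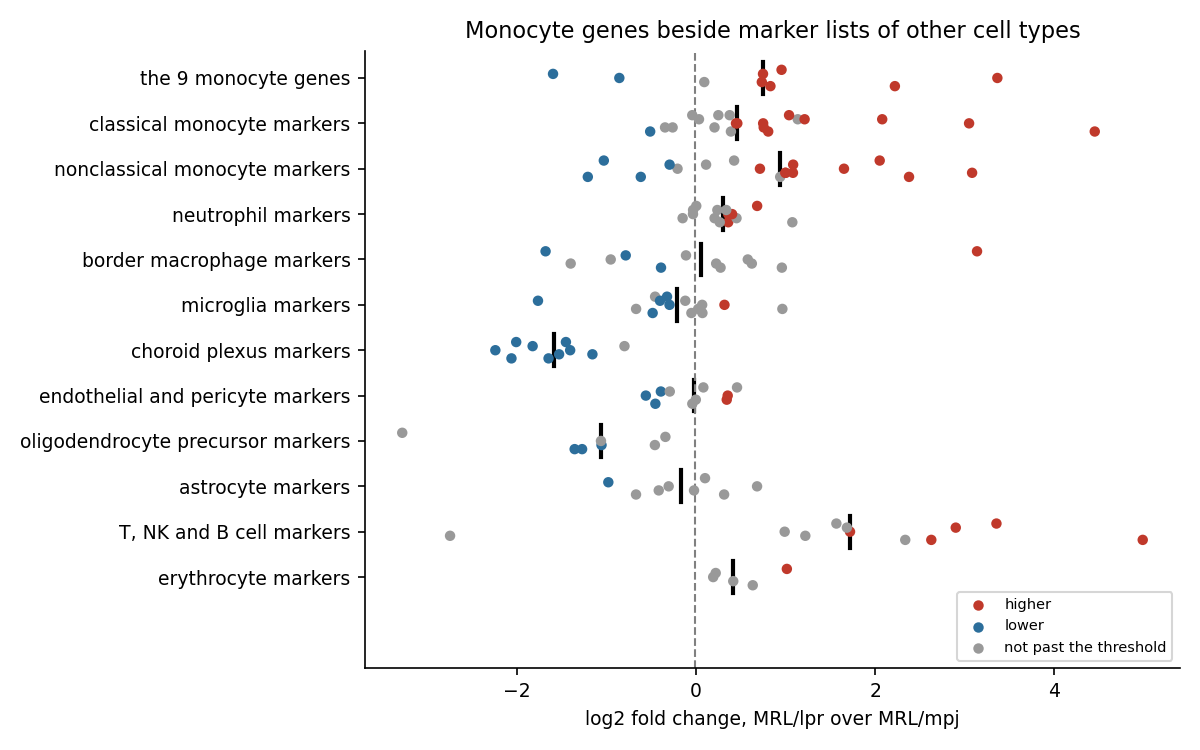
Log2 fold change of each tested gene (points) in the 9-gene group and in each list of cell type markers, in MRL/lpr against MRL/mpj, with a line at the list median and colours for an adjusted p under 0.05 (red higher, blue lower, grey not past it). The medians run from -1.58 (choroid plexus) and -1.06 (oligodendrocyte precursors) to 1.72 (T, NK and B cells), with 0.75 for the 9 genes.

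Genes of leukocyte trafficking, which carry monocytes from blood into tissue, were mixed. Of 24 tested, 8 rose, 3 fell and 13 did not pass, with a median of 0.14, and 5 to 8 rose when 1 library was left out. The monocyte chemokine receptor gene Ccr1 had the largest rise (2.81, adjusted p = 2.93e-07, edgeR), from 12.5 ± 0.671 CPM in MRL/mpj to 87.5 ± 7.59 CPM in MRL/lpr (SD, n = 3 each). The CCR2 ligand genes Ccl2 (0.44, adjusted p = 0.0332, edgeR), Ccl7 (0.69) and Ccl12 (0.55) rose, while Ccr2 itself did not. The adhesion genes Icam1 (1.03, adjusted p = 4.96e-06, edgeR) and Itgal, its integrin partner (1.09), rose. Sirpa (-0.55, adjusted p = 0.00509, edgeR) and F11r (-0.31) were among the genes that fell. Cx3cr1 had no usable mean, since it had 10645, 132706 and 10334 counts in MRL/lpr replicates 1 to 3. Of the 30 tested partners and relatives of the 9 genes, described above beside each gene, 8 rose and 2 fell, with a median of 0.17.

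**Figure D5:**
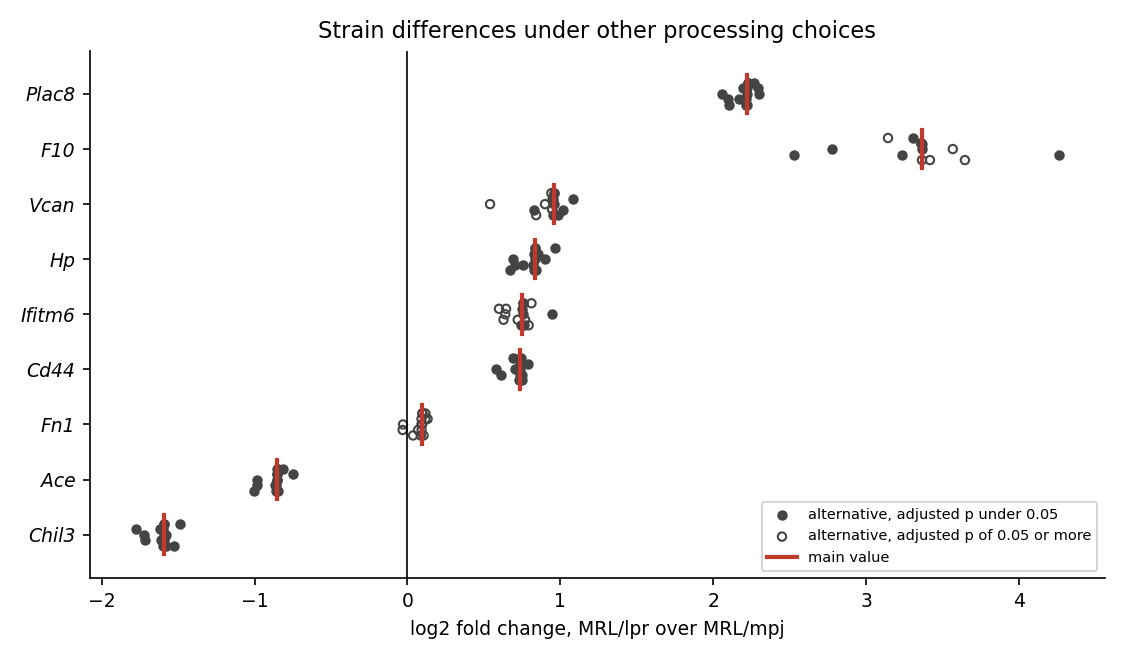
Log2 fold change of each of the 9 genes under the main analysis and each alternative (other normalizations, filters and tools, the replicate block, and each library left out), with filled points for an adjusted p under 0.05 and a red line at the main value. The values for Plac8 stay between 2.06 and 2.30, those for Chil3 between -1.78 and -1.49, and those for F10 spread from 2.52 to 4.26.

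The 9 genes differed in how firmly they were called over the 15 alternatives. Plac8, Ace, Chil3, Hp and Cd44 passed an adjusted p under 0.05 in all 15 and kept their direction. Fn1 passed in none. Vcan passed in 9 of 15, with log2 fold changes of 0.54 to 1.08, and Ifitm6 in 7 of 15, with 0.60 to 0.95. F10 passed in 7 of the 14 that gave it a value.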

How the data were processed

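Brain CD11b-selected cells of 6-week-old MRL/lpr and MRL/mpj mice (3 libraries each) were sequenced as paired-end reads. The labels describe rRNA removal and a stranded total RNA kit, whereas the methods describe mRNA purification. Per the submitters' processing notes, Cutadapt 1.9.3, HISAT2 2.0.4, Cuffdiff 2.2.1, Cufflinks and GRCm38 were used. The counting tool and annotation are not given in the sources used here. The count matrix, as deposited, holds whole numbers that were not normalized. The deposited FPKM divide counts by transcript length and depth. Symbols and coordinates came from GENCODE M21 (GRCm38), which matched 55141 of 55401 identifiers. The other 260 held 0.0163% to 0.0369% of counts. Promoters came from RefSeq (GRCm38.p6).

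Counts were tested with edgeR 4.0.16 in R 4.3.3 (filterByExpr with a minimum count of 10 and total of 15, TMM, robust quasi-likelihood test, Benjamini-Hochberg adjustment over 19554 genes). CPM were scaled by TMM. "Rose" and "fell" mean an adjusted p under 0.05, and "called" also a log2 fold change of 1 or more in size. The study's methods state DESeq2 with the same limits, which was run as an alternative (DESeq2 1.42.0). FPKM were tested with limma 3.58.1 on log2(FPKM + 0.1). The procedure was tested on simulated data. Replicates of a strain differed by more than the sampling noise of their counts, so none was taken as an identical copy. That noise took each count as 1 read pair, and the comparison cannot exclude that libraries came from the same animals. The 9 genes and all marker lists were chosen with earlier results of these data known. Named were all 9 genes and, from each list, the first 2 markers, the largest called rise and fall, and partners that were called or share a pathway step. Ms4a4c, Ccl9, Thbs1, Slc2a5, Stab1, Csf3r, Chil1, Ifitm1, Ifitm2, Ifitm3, Ifitm10 and the trafficking genes other than Ccr1 were named after their values were seen. Some list genes are not reported here.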

Additional observations from a re-analysis of the deposited data

How the results depend on the processing

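Of the 9 genes, 2 were called higher, and 1 was called higher under DESeq2, with at least 1 count in total, with at least 10 counts in every library and with the replicate block. Leaving out 1 library at a time gave 1 to 2 called higher and 1 to 2 called lower. The log2 fold change of Fn1 turned from 0.094 to -0.0317 with library size only and to -0.0291 on FPKM with limma, and passed no test there. The count of the 9 genes that rose ranged from 3 (replicate block, and without MRL/lpr replicate 2 or 3) to 6, and 2 fell under each alternative. Vcan was lost on FPKM with limma (adjusted p = 0.285), Ifitm6 with library size only (0.0786) and on FPKM (0.0972), and F10 under DESeq2 (0.0601) and with at least 1 count in total (0.114, edgeR). F10 gave no value with at least 10 counts in every library.

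Over all genes, 914 were called higher and 716 lower, against 766 and 932 with library size only, which moved the median log2 fold change of all genes from -0.01 to -0.13. Without 1 library, 796 to 858 were called higher and 571 to 792 lower. The scaling that set aside the 20 most abundant and the mitochondrial genes was chosen after seeing the data and gave 923 and 713.

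The main test used no pairing of replicates. Same-numbered replicates of the strains did not deviate together (correlations -0.115, -0.15 and -0.174 over 9298 genes), although so few libraries cannot exclude a pairing. With the replicate block, 806 genes were called higher and 616 lower, and Vcan (adjusted p = 0.0534), F10 (0.115) and Ifitm6 (0.0721, edgeR) no longer passed. With counts divided by 4, in case 1 read pair is worth 4 counts, 2 of the 9 genes were still called higher, and F10 passed with an adjusted p of 0.00395 (edgeR).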
